A study of Triticum aestivum with 18 samples.

Results

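Wheat makes proteins that block enzymes of attacking organisms, and 5 genes grouped as inhibitors were followed in leaves under greenbug attack: XIP-I (a xylanase inhibitor), wci, and the serpins WSZ1c, WSZ2a and WSZ2b. They were chosen as every probe set whose gene symbol, or a synonym in the gene table, was one of these names. The choice gave 5 of 771 annotated genes, read by 6 of the 61290 probe sets on the array, 2 for XIP-I and 1 for each other gene. RNA came from leaf tissue of greenhouse plants of 2 near-isogenic lines at the 3-leaf stage, the resistant TXGBE273 and the susceptible TXGBE281. Each line had 3 arrays at 0 h (marked as control in the labels), 3 at 24 h and 3 at 48 h after infestation with greenbug biotype E, an aphid that feeds from the phloem. A difference from 0 h holds infestation, plant age and sampling time together, because later leaves without aphids were not analysed here.

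XIP-I is a protein of the apoplast that inhibits fungal xylanases, the enzymes that cut the xylan of the cell wall, and it is folded like a plant chitinase without being one. Xylanase inhibitor genes of cereals are known to respond to wounding and to fungal attack. Serpins are inhibitors that trap serine proteases through an exposed loop, and the WSZ serpins of wheat are best known as abundant proteins of the grain. The annotation gives wci as a symbol only, and although the choice counts it among inhibitors, no role is stated for it here.

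Values are MAS5 signals on a linear scale. Differences are log2 differences of the signal plus 16, an offset that understates the change of dim probe sets. They come from 1 limma model over all 18 arrays and 46251 probe sets, and "called" means a Benjamini-Hochberg adjusted p under 0.05 over all of these. A probe set was tested when its signal lay above the array's own 40th percentile (50.77 to 70.11 over the arrays) in at least 3 arrays. XIP-I and wci lay above it in 18 of 18 arrays and WSZ2a in 9, whereas WSZ1c and WSZ2b did so in 0 and were not tested. The 4 probe sets tested are therefore not all members, and WSZ2a passed the filter through 6 resistant arrays and the 3 susceptible arrays at 48 h. Levels are not compared between probe sets, because brightness also depends on the probes. Whether the 3 replicates of a group were different plants is not stated, and the p-values reflect only the spread among them, which may be technical.

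XIP-I rose in both lines at both times, by 2.52 to 4.99 times over its 2 probe sets. WSZ2a rose in susceptible leaves at 48 h, where its 0 h signals had been below the 40th percentile, and it passed no other test of infestation. The wci signal lay between 107.4 and 240.9 in all arrays and was not called in any of the 11 comparisons. No member was called as differing between the lines at any time.

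The first XIP-I probe set had resistant signals of 8984, 7048 and 8103 at 0 h, of 23680, 19210 and 18040 at 24 h, and of 31820, 24540 and 22860 at 48 h. Its susceptible signals were 7585, 7305 and 7099 at 0 h, 24390, 18860 and 25310 at 24 h, and 29290, 25450 and 26200 at 48 h. All 12 infested arrays lay above all 6 arrays at 0 h, while the 24 h and 48 h arrays of the resistant line overlapped. The second XIP-I probe set was designed on the same transcript, and by the maker's naming its probes may also read related transcripts. Its resistant signals were 7784, 5854 and 6273 at 0 h, 20720, 16660 and 15260 at 24 h, and 28650, 22340 and 20890 at 48 h. Its susceptible signals were 6216, 4408 and 5314 at 0 h, 24210, 15910 and 25820 at 24 h, and 28060, 23950 and 27160 at 48 h. Both probe sets put the same array lowest in the susceptible line at 24 h (replicate 2) and the same array highest in the resistant line at 24 h and at 48 h (replicate 1 in each). The 2 share a transcript and are not independent measurements.

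**Figure D1:**
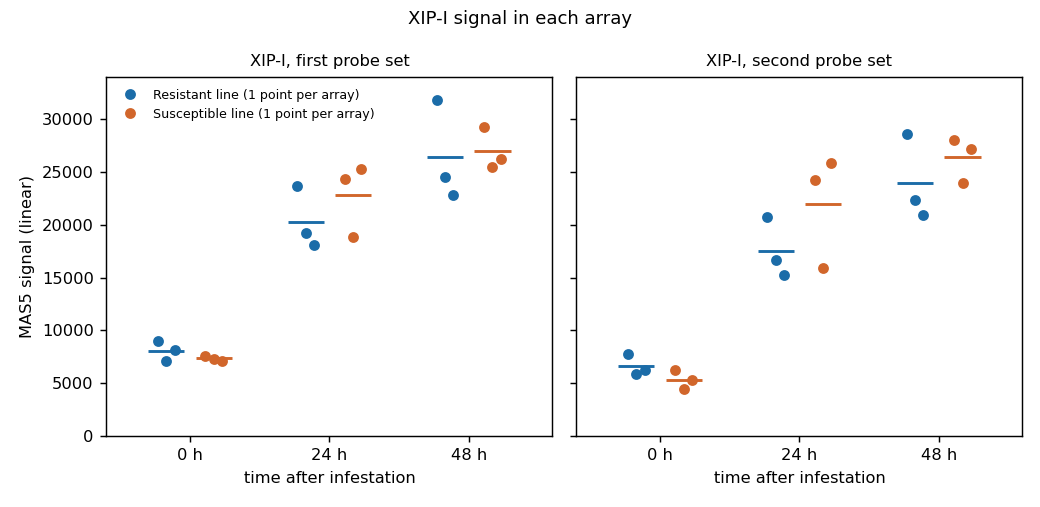
MAS5 signal on a linear axis of the 2 XIP-I probe sets (left and right) against time after infestation, with 1 point per array and a bar at each group's mean, for the resistant line and the susceptible line. For the first probe set all infested arrays lie at 18040 or above and all arrays at 0 h at 8984 or below.

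At 24 h XIP-I averaged 20310 ± 2979 in infested resistant leaves and 8045 ± 969.5 at 0 h (SD, n = 3 each), a log2 difference of 1.33 ± 0.14 (SE, limma adjusted p = 1.77e-07). At 48 h the mean was 26410 ± 4763 (SD, n = 3), a difference from 0 h of 1.70 ± 0.14 (limma adjusted p = 5.15e-09). Susceptible leaves averaged 22850 ± 3489 for XIP-I at 24 h, against 7330 ± 244.3 at 0 h (SD, n = 3 each), and its difference was 1.63 (limma adjusted p = 8.77e-09). At 48 h the susceptible mean was 26980 ± 2036, with a difference of 1.88 (limma adjusted p = 7.23e-10). The second probe set gave larger values, 1.40 and 1.85 for resistant leaves at 24 h and 48 h and 2.03 and 2.32 for susceptible ones, and adjusted p of 2.32e-06 or less in limma. As a description, these XIP-I changes were above those of 95.46% to 98.14% of the probe sets tested. The 24 h and 48 h comparisons of a line share their 0 h arrays. The samples were whole leaf tissue, in which a change in the share of a cell type and a change of RNA per cell cannot be told apart.

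Among the 4 members tested, 2 were called as higher in resistant leaves at 24 h, where 17.6% of all tested probe sets were called as higher, and 2 at 48 h (17.4%). Among susceptible leaves 2 were called as higher at 24 h (17.1%) and 3 at 48 h (17.8%), and 0 were called as lower in these 4 comparisons. The calls are XIP-I, counted with both probe sets, joined by WSZ2a at 48 h in the susceptible line. The 3 infested arrays lay wholly above the 3 arrays at 0 h for 3 of the 4 in the resistant line at 24 h (22.4% of all tested) and for 2 at 48 h (21%). They did so for 3 in the susceptible line at 24 h (21%) and for 3 at 48 h (22.4%). The 3 at 24 h include WSZ2a, which was below the 40th percentile in every array of both groups. The median log2 difference of the 4 was 0.85 (24 h) and 1.07 (48 h) for resistant leaves and 1.32 and 2.05 for susceptible leaves, against medians of all tested probe sets between -0.0768 and -0.018. XIP-I gave 2 of the 4 values, so this median is not read as a change common to the members.

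Between 24 h and 48 h XIP-I had higher means at 48 h in both lines, but 0 of the 4 members were called by limma in either. Resistant leaves had a difference of 0.37 (95% interval 0.09 to 0.66, limma adjusted p = 0.129), where 5.17% of all tested probe sets were called. The second probe set had 0.45 (adjusted p = 0.163 in limma), and its 3 arrays at 48 h lay above the 3 at 24 h, as did 9.7% of all tested probe sets. These 2 were the members with an unadjusted p under 0.05. Susceptible leaves had a difference of 0.25 (95% interval -0.0351 to 0.53, limma adjusted p = 0.315), with 10.1% of all probe sets called. There the arrays at 48 h lay above those at 24 h for the first XIP-I probe set and WSZ2a, as they did for 12.5% of all tested probe sets, and 1 member, WSZ2a, had an unadjusted p under 0.05.

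Between the lines, 0 of the 4 members were called by limma at 0 h, 24 h or 48 h, where 0.0216%, 5.15% and 12.1% of all tested probe sets were. At an unadjusted p under 0.05 the counts were 1, 0 and 0. XIP-I averaged 8045 in resistant and 7330 in susceptible leaves at 0 h, a resistant minus susceptible difference of 0.13 (95% interval -0.16 to 0.41). At 24 h it was -0.17 (-0.45 to 0.12) and at 48 h -0.0431 (-0.33 to 0.24). The line by infestation comparison sets the resistant line's change from 0 h minus the susceptible line's. For XIP-I it was -0.30 ± 0.19 at 24 h (SE, 95% interval -0.70 to 0.11, limma adjusted p = 0.605) and -0.17 ± 0.19 at 48 h (-0.57 to 0.23, limma adjusted p = 0.722). The second probe set had -0.63 at 24 h (95% interval -1.14 to -0.11, limma adjusted p = 0.283) and -0.47 at 48 h (-0.99 to 0.04). Without replicate 2 of the susceptible line at 24 h, the array with the lowest XIP-I signal of its group, the 24 h value was -0.85 and was called (limma adjusted p = 0.0364). Of 12 fits that each left out 1 array, that was the only 1 with a call. In the line by infestation comparisons 0 of the 4 members were called at 24 h and 0 at 48 h by limma, with 1.6% and 5.05% of all tested probe sets called. The members with an unadjusted p under 0.05 were the second XIP-I probe set at 24 h and WSZ2a at 48 h.

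**Figure D2:**
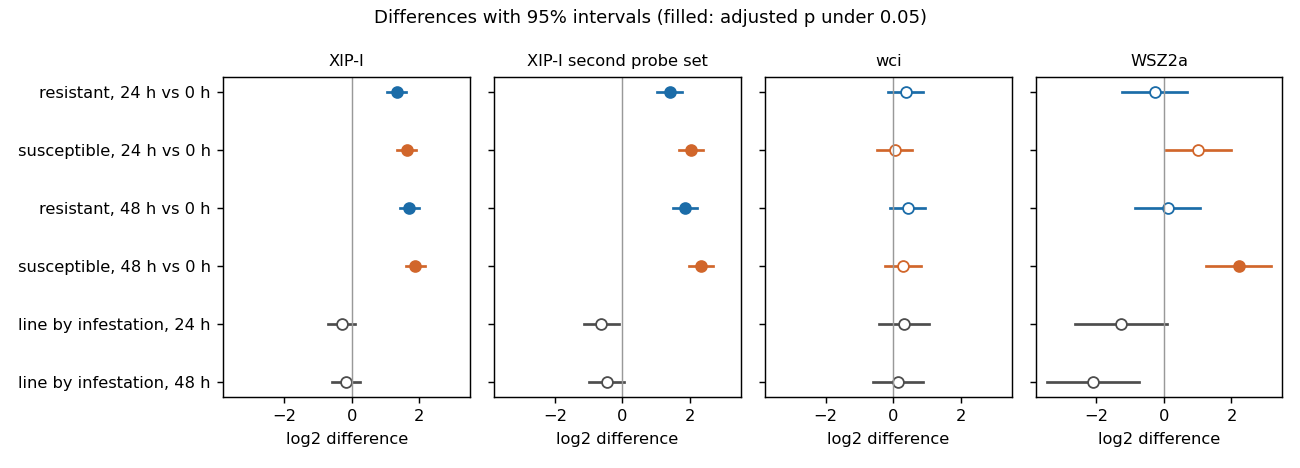
Log2 differences (x axis) with 95% intervals for the 4 tested probe sets, from the limma model, where filled points have an adjusted p under 0.05. The rows are infested minus 0 h in each line at 24 h and 48 h, then line by infestation (resistant change minus susceptible change). XIP-I is filled in all 4 infested rows, WSZ2a in the susceptible 48 h row alone (2.22), wci in none, and no line by infestation point is filled.

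The wci probe set had resistant signals of 107.4, 118.8 and 138.2 at 0 h, 144.4, 155.5 and 184.4 at 24 h, and 200.5, 182.7 and 129.2 at 48 h. Its susceptible signals were 136.5, 217.2 and 166.6 at 0 h, 227.2, 130.9 and 182.1 at 24 h, and 240.9, 176 and 223.3 at 48 h. The resistant arrays at 24 h all lay above those at 0 h, as did 22.4% of all tested probe sets. The groups overlapped in the other comparisons. The log2 differences from 0 h were 0.37 (95% interval -0.16 to 0.90) and 0.43 (-0.0992 to 0.96) for resistant leaves at 24 h and 48 h, and 0.0414 (-0.49 to 0.57) and 0.29 (-0.24 to 0.81) for susceptible ones. Their limma adjusted p were 0.301, 0.215, 0.926 and 0.418. On a scale set by the bacterial hybridisation controls instead of the array mean, wci was called as higher in resistant leaves at 24 h (0.95) and 48 h (0.85) and in susceptible leaves at 48 h (0.97). There 18976, 16296 and 20635 of the 46251 tested probe sets were called in either direction. In the main fit these numbers were 14872, 15595 and 17064. On that scale the median of all probe sets moved up to 0.55, 0.34 and 0.56 in these comparisons, so that the excess of wci over it was 0.41, 0.50 and 0.41. Against the susceptible line wci was lower by mean signal at 0 h, with 121.4 ± 15.57 in resistant and 173.4 ± 40.78 in susceptible leaves (SD, n = 3 each). That difference of -0.45 (95% interval -0.97 to 0.08) was not called (limma adjusted p = 0.786).

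WSZ2a, also named Serpin-Z2A in the gene table, was read by a probe set whose probes may by the maker's naming also read related transcripts. Its susceptible signals were 9.531, 6.608 and 18.2 at 0 h, 24.31, 49.06 and 46.05 at 24 h, and 124.6, 85.87 and 122.2 at 48 h. The 3 groups of susceptible arrays did not overlap. Of all tested probe sets 21% were wholly higher at 24 h than at 0 h, and 22.4% at 48 h than at 0 h. From 24 h to 48 h the share was 12.5%. The WSZ2a signals at 0 h and 24 h were all below the 40th percentile of their arrays, so their order is not read as a rise. Its resistant signals were 30.69, 70.52 and 104.9 at 0 h, 92.1, 16.91 and 62.84 at 24 h, and 90.26, 52.57 and 67.61 at 48 h. These resistant groups overlapped one another, and in each 2 of 3 arrays lay above the 40th percentile.

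At 48 h the susceptible WSZ2a mean was 110.9 ± 21.72, against 11.44 ± 6.026 at 0 h (SD, n = 3 each). The log2 difference was 2.22 ± 0.46 (SE, 95% interval 1.26 to 3.18, limma adjusted p = 0.000575). With the 40th percentile of each array standing for dim signals at 0 h, the 48 h signal was at least 1.66-fold higher. With every dim signal set to that percentile, a choice made after the values were seen, the difference from 0 h was 0.62 and still called (limma adjusted p = 0.0124). At 24 h all 6 susceptible arrays of both groups were dim, so no fold is given. The fitted difference of 1.01 was not called (limma adjusted p = 0.101). With dim signals at the percentile the value was -0.26, which compares the percentiles of the arrays alone and holds no WSZ2a signal. Between 48 h and the dim 24 h group the fitted difference was 1.202 (limma adjusted p = 0.115), and 0.87 with a call with dim signals at the percentile (limma adjusted p = 0.00441). For resistant leaves the WSZ2a difference from 0 h was -0.27 (95% interval -1.23 to 0.69) at 24 h and 0.11 (-0.85 to 1.07) at 48 h.

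Before infestation WSZ2a averaged 68.71 ± 37.15 in resistant and 11.44 ± 6.026 in susceptible leaves (SD, n = 3 each). All 3 resistant arrays lay above the 3 susceptible arrays, as did 5.18% of all tested probe sets at 0 h. The susceptible group was below the 40th percentile in all 3 arrays, so its level has only an upper limit. The fitted difference of 1.54 had an unadjusted limma p of 0.00324 and was not called (adjusted p = 0.445), and with dim signals at the percentile it was 0.24 (limma adjusted p = 0.895). At 48 h the means were 70.14 in resistant and 110.9 in susceptible leaves, a difference of -0.57 (-1.53 to 0.39). The line by infestation value at 48 h was -2.11 ± 0.65 (SE, 95% interval -3.47 to -0.75), and it missed the call (limma adjusted p = 0.0687). It was called without replicate 1 of the resistant line at 0 h, whose WSZ2a signal of 30.69 was the lowest of its group (-2.49, limma adjusted p = 0.036). Of 12 fits that each left out 1 array, that was the only 1 with a call. With dim signals set to the 40th percentile the line by infestation value was -0.78 (limma adjusted p = 0.101).

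Because WSZ serpins are grain proteins, a list of grain storage protein symbols was read beside them. It had 13 probe sets, of which 8 were tested, and 2 were called as higher and 0 as lower in the susceptible line at 48 h. Both read LMGli2482, a gliadin-type symbol, and the same count of 2 higher and 0 lower was found for resistant leaves at 48 h. Of all tested probe sets 17.8% and 17.4% were called as higher in these 2 comparisons. Both LMGli2482 probe sets were below the 40th percentile in every array at 0 h, so the level there has only an upper limit. In resistant leaves at 48 h 2 of 3 arrays of each lay above it. The summed signal of the list lay between 2383 and 5295 per array in the susceptible line at 48 h, against 280.9 to 672.4 at 0 h. Without LMGli2482 it lay between 399.3 and 476 at 48 h and between 259.7 and 656.8 at 0 h. Resistant leaves had a whole sum of 412.7 to 806.1 at 0 h, 430.9 to 613.2 at 24 h and 527.3 to 1234 at 48 h. At 48 h in the susceptible line 5 of the 13 were below the 40th percentile in all 3 arrays, and 9 were at 0 h. The part of grain-type signal in the WSZ2a result was not tested. The leaf list (rbcL, PRK, PsbO, PsbP, petC and CAT1, 36 probe sets) summed to between 188700 and 599600 per array, with lower sums in the infested groups. Most of its probe sets read rbcL, so its counts are not counts of separate genes. In resistant leaves 14 of the 28 tested leaf-list probe sets were called as lower at 24 h and 16 at 48 h. The shares of all tested probe sets were 14.5% and 16.3%. A petC probe set was called as higher at each time (2.07 and 1.75). Its 3 arrays at 0 h were below the 40th percentile (5.403, 6.543 and 3.324), so the level there has only an upper limit. At each infested time 2 of its 3 arrays lay above it. The other petC probe set was called as lower at both times (-0.90 and -0.97). For susceptible leaves 17 of the leaf list were called as lower at each time (16.3% and 19.1% of all tested) and 0 as higher. Its part in the results was not tested either.

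**Figure D3:**
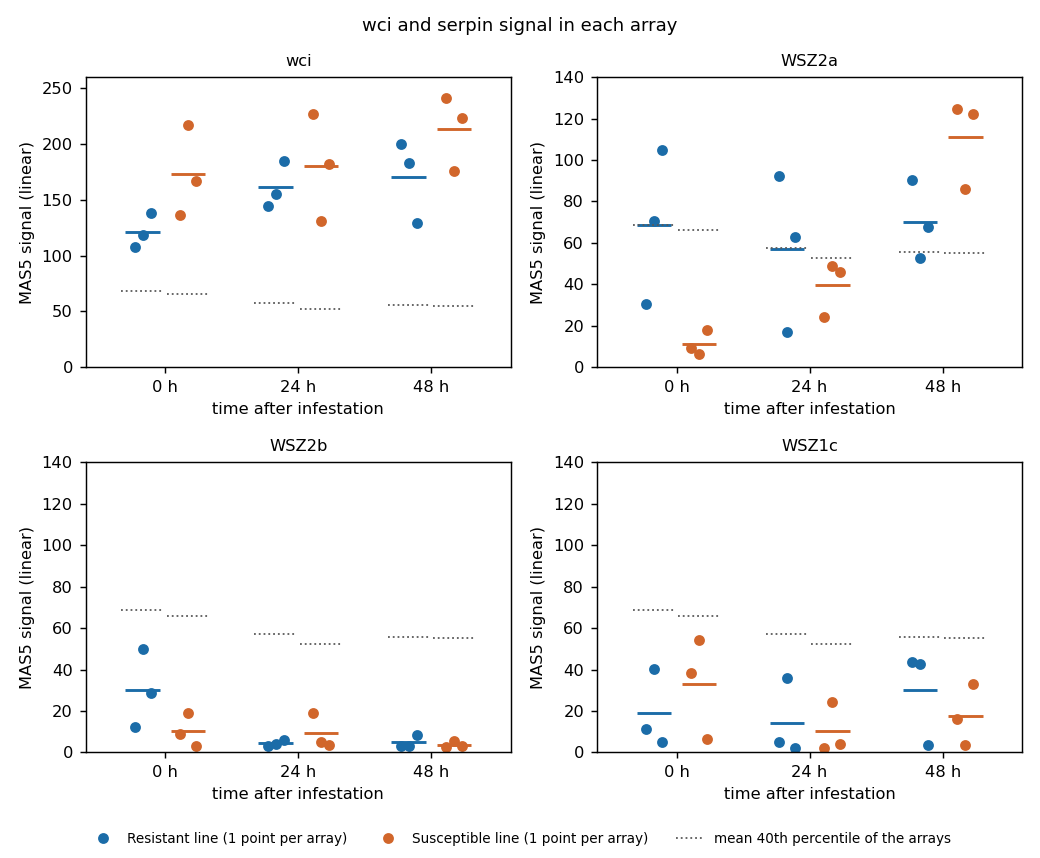
MAS5 signal on a linear axis of wci, WSZ2a, WSZ2b and WSZ1c against time after infestation, with 1 point per array, a bar at each group's mean and a dotted line at the mean 40th percentile of the group's arrays. The resistant line is left of the susceptible line at each time. All wci points lie above the dotted lines, WSZ2a in susceptible leaves reaches 85.87 to 124.6 at 48 h, and all WSZ2b and WSZ1c points lie below.

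WSZ2b, or Serpin-Z2B, was below the 40th percentile in all 18 arrays. Its resistant signals were 12.42, 49.86 and 28.55 at 0 h, 3.091, 4.179 and 6.118 at 24 h, and 3.193, 2.911 and 8.464 at 48 h. The infested resistant arrays lay below those at 0 h at both times, as did 20.9% of all tested probe sets at 24 h and 22.5% at 48 h. Its susceptible signals ran from 3.099 to 18.87 at 0 h, from 3.726 to 18.81 at 24 h and from 2.461 to 5.697 at 48 h, and the groups overlapped. With no filter on dim probe sets, limma gave WSZ2b in resistant leaves an adjusted p of 0.0177 at 24 h and 0.019 at 48 h. Because every array of both groups was below the 40th percentile, these are not read as a fall and no fold is given. Neither the susceptible comparisons (adjusted p of 0.928 and 0.485 in limma) nor line by infestation (0.441 and 0.534) passed in that fit.

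WSZ1c, or Serpin-Z1C, had signals of 2.144 to 54.22 and also lay below the 40th percentile in all 18 arrays. Its group means were 18.85, 14.34 and 30.05 for resistant leaves and 33.07, 10.24 and 17.66 for susceptible leaves at 0 h, 24 h and 48 h, with SDs of 12.16 to 24.24. Every pair of its groups overlapped in the comparisons made. With no filter, limma gave it an adjusted p of 0.336 or above in all 11 comparisons.

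Of the other wheat inhibitor symbols on a list (xylanase, amylase, subtilisin, trypsin and cysteine protease inhibitors, polygalacturonase inhibitors and further serpins), 2 were annotated, the serpin WSZ1b and the alpha-amylase inhibitor WMAI-1. They had 3 probe sets, and 2 of them were tested. None was called as higher in the 4 comparisons with 0 h, and 1 was called as lower, a WSZ1b probe set in susceptible leaves at 48 h. In that comparison 19.1% of all tested probe sets were called as lower. The WSZ1b probe set had 22.21, 38.74 and 12.3 at 48 h, against 98.09, 67.6 and 135.2 at 0 h. At 0 h 2 of its 3 arrays lay above the 40th percentile. By the maker's naming, the probes of this set may also read related transcripts. All 3 arrays at 48 h were below the 40th percentile, so the level there has only an upper limit. With that percentile in its place and the 0 h signals as measured, the 48 h signal was 1.74-fold lower. This is not a strict lower bound, because the 0 h signal of 67.6 was itself below its array's percentile of 69.79. The fitted log2 difference was -1.54 ± 0.42 (SE, limma adjusted p = 0.00626). With dim signals at the percentile it was -0.68 (limma adjusted p = 0.0115), and on the hybridisation control scale it was -1.01 without a call (limma adjusted p = 0.0782). Resistant leaves had WSZ1b signals of 53.45, 75.49 and 100.9 at 48 h and 86.4, 66.19 and 66.4 at 0 h, which overlapped. The line by infestation value of WSZ1b at 48 h was 1.57 ± 0.59 (SE, limma adjusted p = 0.154). In susceptible leaves at 48 h the WSZ2a probe set was called as higher and 1 of the 2 WSZ1b probe sets as lower. The other WSZ1b probe set was not tested and was dim in all susceptible arrays at these times. It had 20.68, 9.573 and 7.06 at 0 h and 11.41, 9.653 and 19.54 at 48 h. WMAI-1 had signals of 115.6 to 264, and its differences from 0 h had limma adjusted p of 0.207 or above. A list of pathogenesis-related symbols matched PR5, a thaumatin-like protein gene, and Glc1, with 3 probe sets. Of these, 1 was called as higher in resistant leaves at 24 h and 2 at 48 h, and 2 at each time in susceptible leaves, with 0 called as lower. The shares of all tested probe sets called as higher were 17.6%, 17.4%, 17.1% and 17.8%. The calls were PR5 in all 4 comparisons and 1 Glc1 probe set in all but resistant leaves at 24 h. The other Glc1 probe set was called in none (limma adjusted p of 0.185 or above).

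The annotated genes whose log2 values over the 18 arrays were most like those of the members were ranked by Pearson's r among 1092 probe sets, as a description. For XIP-I they were LOC606308, with 2 probe sets at r = 0.983 and 0.982, and LOC543297 at 0.974. For the second XIP-I probe set they were the same LOC606308 probe sets at 0.984 and 0.981 and LOC543317 at 0.981. For WSZ2a the nearest were Tubb5 at 0.705, LOC542961 at 0.704 and LOC606370 at 0.674, and for wci LOC606369 at 0.763, LOC543298 at 0.686 and LOC543378 at 0.674.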

How the data were processed

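Total RNA of 18 leaf samples was hybridised to 1 Affymetrix wheat array each as biotin-labelled RNA, per the labels' protocols. The deposited values are probe-set intensities made by the authors with MAS5, per the submitters' processing notes, whose version is not given in the sources used here. After trimming 2% at each end, every deposited array had a mean intensity of 500.1, so all changes are relative to that common level. Detection calls were not used.

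Of 61290 probe sets, 111 controls and 14928 dim ones were left out and 46251 were tested as log2(signal + 16) with limma 3.58.1 in R 4.3.3, with 6 groups in 1 model, a variance trend and 11 comparisons. The steps were tested on simulated data. Precision is limited by the 3 arrays of each group. Genes were named through the platform annotation and a wheat gene table (assembly IWGSC CS RefSeq v2.1), in which all 5 members were found. Coordinates are left out because no assembly is named by the study, and sequences of these genes were not used here. Wheat is hexaploid, and related gene copies may share a probe set. All member probe sets were named, other listed inhibitors where called, and the 3 most similar annotated probe sets per member. WMAI-1, which was not called, is named outside this rule, after its values were seen, because only 2 listed inhibitors were annotated. The members, lists and tests were chosen with earlier results of these data known. Same-numbered replicates deviated together little over all tested probe sets. Correlations of their deviations from the group means were -0.0341 to 0.0615 over 27 pairs, and in 15 of these the same number correlated best. The numbers were not taken as pairs in the main fit, and a fit with them as a block is given below.

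Alternatives were quantile normalization, scaling on 18 hybridisation control probe sets, offsets of 1 and 64, no filter, a filter at the 60th percentile, no variance trend, a fit to the arrays compared alone, replicate number as a block, each array left out in turn and, added after the data were seen, a floor at the 40th percentile.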

Additional observations from a re-analysis of the deposited data

How the results depend on the processing

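XIP-I with both probe sets in the 4 comparisons with 0 h, and WSZ2a in the susceptible line at 48 h, kept their direction and call in every alternative that tested them. Their changes ran from 1.22 to 3.06 for XIP-I and from 0.62 to 3.26 for WSZ2a, which the filter at the 60th percentile removed. With the replicate number as a block, 2 member probe sets instead of 0 were called between 48 h and 24 h for resistant leaves, the XIP-I probe sets at 0.37 and 0.45 (limma adjusted p = 0.0428 and 0.037). The replicate block changed no other member's call, and in 15 of 27 pairs the same number correlated best. With the floor at the 40th percentile, 1 member instead of 0 was called from 24 h to 48 h in the susceptible line (WSZ2a, 0.87, limma adjusted p = 0.00441). WSZ2a turned to -0.16 in resistant leaves at 48 h. Its value of -0.26 (susceptible, 24 h) compares only percentiles of the arrays. That of 0.092 (line by infestation, 24 h) takes its susceptible part from them. These 2 are not read as a reversal of WSZ2a. With 1 array left out, the line by infestation comparisons had 0 to 1 members called at each time. With an offset of 1, WSZ2a in the susceptible line at 24 h was called at 1.76 (limma adjusted p = 0.0451). Every array of both groups was below the 40th percentile there, so this call is not read as a rise.

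The other turns of sign were in values without a call. Under hybridisation control scaling they were WSZ2a at 0.24 and WMAI-1 at 0.57 (resistant, 24 h), WMAI-1 at 0.14 (resistant, 48 h), 0.36 and 0.24 (susceptible, 24 h and 48 h), and wci at -0.11 (resistant, 48 h against 24 h), 0.025 (lines at 24 h) and -0.12 (line by infestation, 48 h). Under quantile normalization WMAI-1 at 24 h was 0.0087 for resistant and 0.10 for susceptible leaves. Leaving out 1 array gave ranges across 0 for WSZ2a of -0.64 to 0.23 and -0.27 to 0.42 (resistant, 24 h and 48 h), -0.12 to 0.735 (resistant, 48 h against 24 h) and -0.10 to 0.76 (lines at 24 h). For wci they were -0.13 to 0.23 (susceptible, 24 h), -0.0565 to 0.23 (resistant, 48 h against 24 h), -0.31 to 0.0504 (lines at 24 h) and -0.0202 to 0.31 (line by infestation, 48 h). They were -0.185 to 0.0534 for XIP-I (lines at 48 h), -0.15 to 0.22 for WSZ1b (resistant, 48 h), and -0.19 to 0.0568 and -0.32 to 0.15 for WMAI-1 (resistant and susceptible, 24 h). Without susceptible 0 h replicate 2, WMAI-1 in the susceptible line at 48 h was called at -0.69 (limma adjusted p = 0.0372). The causes were not tested. Signals near the bottom of the array limit WSZ2a, WSZ1b, WSZ2b and WSZ1c, and also LMGli2482 and 1 petC probe set.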
